A study of Mus musculus with 42 samples.

Results

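Nuclear receptors are transcription factors that bind DNA through zinc fingers and switch target genes on or off when a small lipid-soluble ligand, such as a steroid, a thyroid hormone, a retinoid, a bile acid or a fatty acid, occupies their ligand pocket. Many of them work as pairs with a retinoid X receptor, and orphan members have no established ligand. In liver they set bile acid, lipid and drug metabolism, and in fat they direct the formation and heat production of adipocytes. The nuclear receptor genes followed here were all genes of a list of 41, and 39 of them had at least 1 probe set annotated to the gene alone, with 102 such probe sets among the 45037 non-control probe sets of the array and 39 genes among 18193. *Nr1h2*, a liver X receptor, and *Nr2e3*, a photoreceptor orphan receptor, had none and were not analysed here, and 1 probe set that names *Ppard* together with another gene was left out. Of the 39 genes, 14 had 1 probe set and 25 had more, and a gene was represented by its probe set of the highest mean: over the water mice of all tissues for levels and for differences between tissues, and within the tissue for the effect of VAAM. Both rules chose the same probe set except for *Esrrg* and *Pgr* in liver, *Rora*, *Vdr*, *Nr1i2*, *Esrrg* and *Nr5a2* in WAT, and *Vdr*, *Hnf4a*, *Nr2c1* and *Nr5a2* in BAT.

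The RNA came from liver, from white adipose (WAT) and from brown adipose (BAT) tissue of male ddY mice, an outbred strain, that entered the study at 5 weeks of age and were dosed after 1 week of acclimation, and was hybridised to Affymetrix mouse genome arrays, which read each gene through short oligonucleotide probe sets. Water mice received water by mouth, and VAAM mice received a 1.8% solution of an amino acid mixture with the composition of *Vespa* larval saliva, both at 37.5 µL per g body weight, once daily for 5 administrations, with food removed on the last day and tissue taken 4 h after the last dose. Food and water were otherwise free. Each tissue had 7 water and 7 VAAM arrays, 42 in all, and the tissues came from the same animals. The study asked how the mixture acts on gene expression in several tissues, and its analysis of upstream signals named oestrogen and progesterone among others.

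The deposited values are DFW values (distribution free weighted summaries of the probes, read here as log2), and they are strongly compressed: over the 7 water mice of a tissue, the SD of a nuclear receptor gene was at most 0.00866 log2 units, and its VAAM and water means differed by at most 0.00542. Effects of VAAM are therefore given in units of the within-group SD of the probe set in that tissue, as mean ± SE, and cannot be read as fold changes. Genes foreign to a tissue kept wide differences on the same scale. The summed log2 level of 10 measured epididymis markers of 12 in WAT ran from 71.8 to 113.9 in the water mice and from 76.8 to 123.3 in the VAAM mice, and that of 10 skeletal muscle markers in BAT from 70.2 to 107.2 and from 69.2 to 104.7. The arrays that stood apart from the rest of their tissue on 1 of the first 3 principal components were VAAM 6 of liver, VAAM 1 of WAT and VAAM 3 and VAAM 5 of BAT. Fewer cells of a type and less RNA per cell cannot be told apart in whole tissue.

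The tissues carried their own marker genes. Of 7 measured hepatocyte markers 6 were at least 1 log2 unit higher in liver than in both fats, the exception being *Cyp2e1*, at 14.43 in liver and 13.79 in WAT. *Adipoq* stood at 5.89 in liver, 14.39 in WAT and 14.04 in BAT, and *Ucp1*, the uncoupling protein of brown fat, at 6.39, 6.37 and 14.22. Foreign markers were present too. Of the 10 epididymis markers 7 were at least 1 log2 unit higher in WAT than in both other tissues, and 8 of the 10 muscle markers were so in BAT.

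Promoter sequences with a motif match are shown for 4 receptor genes that carried the tissue pattern or the VAAM result described next. *Hnf4a* and *Nr5a2* had 2 promoters each, and only the promoter with a match is shown. Promoters are those of RefSeq in the mouse build GRCm38.p6, 250 bases before to 50 after the start of the gene, written 5′ to 3′ on the strand of the gene, and 37 of the 41 listed genes had 58 such promoters. In *Hnf4a*, *Nr5a2* and *Nr1h4* the capitals mark GTTAAT or its complement, the half-site of the liver regulator HNF1, which was in 6 of the 58 promoters and in 7.1% of all 32851. It was also in promoters of *Esrrg* and *Rxrg*, highest in BAT, and of *Thrb*, within 0.5 log2 units over the tissues. *Nr1i2*, *Nr1i3* and *Nr0b2*, highest in liver, had none, so no link of motif and level is read. In *Rarb* the capitals mark a direct repeat of GTTCA with 6 bases between, searched on both strands as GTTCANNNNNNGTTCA. The repeat was in 1 of the 58 promoters and in 0.0761% of all. Retinoic acid receptors are known to bind direct repeats of this kind.

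Hnf4a (chr2:163546905-163547204, plus strand): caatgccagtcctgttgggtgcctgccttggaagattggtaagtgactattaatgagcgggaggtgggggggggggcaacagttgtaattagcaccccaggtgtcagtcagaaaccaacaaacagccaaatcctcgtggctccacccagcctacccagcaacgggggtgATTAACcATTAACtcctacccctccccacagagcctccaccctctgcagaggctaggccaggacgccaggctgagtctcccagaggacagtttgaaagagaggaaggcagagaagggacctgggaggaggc
Nr5a2 (chr1:136960399-136960698, minus strand): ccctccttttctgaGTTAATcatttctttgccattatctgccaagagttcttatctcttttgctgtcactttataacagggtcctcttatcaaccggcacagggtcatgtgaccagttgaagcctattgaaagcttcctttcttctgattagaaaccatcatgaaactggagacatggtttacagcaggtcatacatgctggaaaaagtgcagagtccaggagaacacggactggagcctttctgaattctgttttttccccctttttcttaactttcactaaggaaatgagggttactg
Nr1h4 (chr10:89506609-89506908, minus strand): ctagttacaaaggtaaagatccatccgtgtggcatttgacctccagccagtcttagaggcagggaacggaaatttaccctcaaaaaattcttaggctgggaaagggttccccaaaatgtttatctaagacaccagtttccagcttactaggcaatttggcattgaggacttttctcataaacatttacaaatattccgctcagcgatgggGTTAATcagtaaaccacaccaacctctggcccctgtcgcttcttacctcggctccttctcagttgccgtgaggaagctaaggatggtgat
Rarb (chr14:16575427-16575726, minus strand): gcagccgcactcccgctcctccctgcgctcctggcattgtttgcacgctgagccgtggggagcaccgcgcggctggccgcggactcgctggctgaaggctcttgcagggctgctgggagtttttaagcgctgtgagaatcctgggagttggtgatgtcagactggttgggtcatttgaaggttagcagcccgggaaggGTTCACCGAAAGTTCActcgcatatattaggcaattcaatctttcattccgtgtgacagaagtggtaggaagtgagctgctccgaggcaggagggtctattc

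The half-site that most nuclear receptors share, AGGTCA, was in 11 of the 58 promoters, against 16.3% of all promoters. The *Hnf4a* promoter shown held GTTAAT as its complement in 2 copies 1 base apart, and those shown of *Nr5a2* and *Nr1h4* held 1 copy each. Such a match is a description of the letters in this window.

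Which receptors were present in which tissue was asked first, in the water mice. Of the 39 genes, 17 differed by at least 1 log2 unit between 2 tissues, where 24.2% of all genes did, and 11 stayed within 0.5, where 49.9% of all genes did. Of the 17, 11 were highest in liver, 1 in WAT and 5 in BAT. The same split was not made over all genes, so it is not read as particular to the receptors. limma called 39 of 39 between each pair of tissues, but it called 99.8% of all probe sets between liver and WAT, 99.7% between liver and BAT and 99.8% between BAT and WAT, so nothing is read from those calls. The medians over all probe sets differed between tissues (6.73 in liver, 6.91 in WAT, 6.77 in BAT in the water mice), and whether each tissue was summarised apart is not stated, so tissue and summary run cannot be told apart. Levels of different genes come from different probes and are not set against each other.

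**Figure D1:**
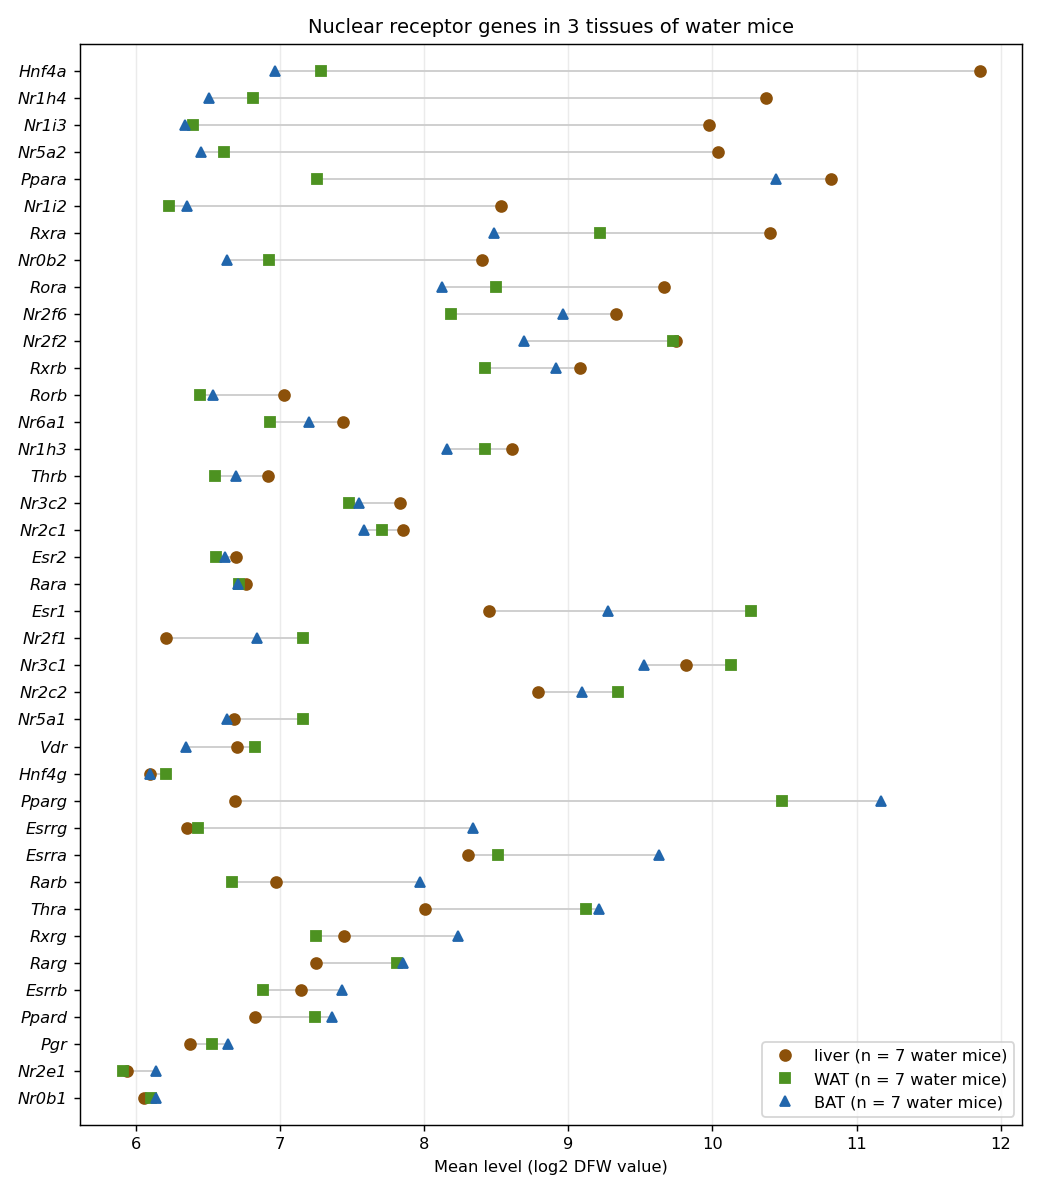
Mean log2 level of the 39 nuclear receptor genes in liver (circles), WAT (squares) and BAT (triangles) of 7 water mice each, ordered by the tissue of the highest level and then by the spread between tissues. The SD over mice, at most 0.00866, is smaller than the symbols. *Hnf4a* spans 4.89 log2 units with liver highest and *Pparg* 4.49 with BAT highest, while *Nr0b1* and *Rara* span under 0.1.

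Against WAT, 10 genes were at least 1 log2 unit higher in liver, where 5.61% of all genes were, and 3 were lower, where 12.5% were. Among the 10 were receptors of bile acid and drug handling. *Hnf4a*, which maintains the hepatocyte programme, stood at 11.85 in liver, 7.28 in WAT and 6.96 in BAT, a difference of 4.57 from WAT, or 23.8-fold. *Nr1h4*, the bile acid receptor FXR, stood at 10.37, 6.81 and 6.50. *Nr1i3*, the drug-sensing receptor CAR, stood at 9.98, 6.39 and 6.34. Its relative *Nr1i2*, the pregnane X receptor, stood at 8.53, 6.23 and 6.36. *Nr5a2*, the receptor LRH-1 of bile acid synthesis, stood at 10.04, 6.61 and 6.45, and *Nr0b2*, the corepressor SHP that bile acids induce, at 8.40, 6.92 and 6.63. All 6 had both fats close together and liver apart. Probe sets of 1 gene did not always agree: 1 of 4 probe sets of *Nr5a2* was level between the tissues, at 6.04, 6.04 and 6.08, while the 2 of *Nr1i2* and the 4 of *Hnf4a* were all highest in liver.

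Against BAT, 9 genes were at least 1 log2 unit higher in liver, where 6.82% of all genes were, and 5 were lower, where 7.17% were. *Rxra*, the main heterodimer partner in liver, stood at 10.40 in liver, 9.22 in WAT and 8.48 in BAT. *Rora*, an orphan receptor of the circadian clock, stood at 9.66, 8.50 and 8.12, but 4 of its 9 probe sets were not highest in liver. *Nr2f2*, the orphan receptor COUP-TFII, was level in liver and WAT (9.75 and 9.72) and lower in BAT (8.69). Its other 5 probe sets were also lower in BAT than in WAT. *Nr2f6*, another COUP factor, stood at 9.33, 8.19 and 8.96.

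Among the peroxisome proliferator-activated receptors each gene had its own tissue order. *Ppara*, which drives fatty acid oxidation, was high in liver and BAT (10.82 and 10.44) and low in WAT (7.25), in all 3 of its probe sets. *Pparg*, the master regulator of adipocytes, stood at 6.68 in liver, 10.48 in WAT and 11.17 in BAT, the reverse of the liver receptors. *Ppard*, present in many tissues, stood at 6.83, 7.24 and 7.36. The *Ppara* difference between BAT and WAT was 3.19 log2 units, or 9.11-fold, and that of *Pparg* 0.69. *Slc27a2*, a PPAR-responsive acyl-CoA synthetase that was listed among the brown fat markers, stood at 13.77 in liver, 6.57 in WAT and 11.25 in BAT.

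Between the fats, 4 genes were at least 1 log2 unit higher in BAT, where 2.54% of all genes were, and 1 was lower, where 6.78% were. *Esrrg* and *Esrra*, orphan receptors that drive mitochondrial genes, were among them. *Esrrg* stood at 6.35 in liver, 6.43 in WAT and 8.34 in BAT, and 2 of its 3 probe sets showed this difference while the third differed by 0.14. *Esrra* stood at 8.30, 8.51 and 9.63, but its other probe set, at 6.75, 7.44 and 7.49, differed by 0.05 between the fats. *Rarb*, a retinoic acid receptor that is itself a retinoid target, stood at 6.97, 6.66 and 7.97, and *Rxrg*, the retinoid X receptor of muscle and brain, at 7.44, 7.25 and 8.23, 0.99 above WAT. The skeletal muscle markers were also higher in BAT, *Acta1* at 10.43 against 7.18 in WAT, and their part in these values was not tested.

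The hormone receptors divided by type. *Thra*, the thyroid hormone receptor alpha, was lower in liver (8.01) than in WAT (9.12) and BAT (9.21), whereas *Thrb*, the beta form, ran from 6.55 to 6.91. *Esr1*, the oestrogen receptor alpha, stood at 8.45 in liver, 10.27 in WAT and 9.28 in BAT, 1.82 log2 units higher in WAT than in liver. Of its 3 probe sets 1 was level, at 6.34, 6.28 and 6.16. WAT also held the epididymis markers, *Gpx5* at 9.92 against 6.81 in liver, and their part in the *Esr1* level was not tested. *Esr2*, the beta form, ran from 6.55 to 6.69 and *Pgr*, the progesterone receptor, from 6.37 to 6.63. *Nr3c1*, the glucocorticoid receptor, stood at 9.82, 10.13 and 9.52, and *Nr3c2*, the mineralocorticoid receptor, at 7.83, 7.48 and 7.54.

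By the probe set used, the remaining genes differed by under 1 log2 unit. Within 0.5 were *Nr0b1*, *Thrb*, *Rara*, *Nr1h3*, *Vdr*, *Hnf4g*, *Nr2c1*, *Nr2e1*, *Esr2*, *Nr3c2* and *Pgr*. Among them *Nr1h3*, the oxysterol receptor LXR alpha, stood at 8.61, 8.42 and 8.16, and *Vdr*, the vitamin D receptor, at 6.70, 6.82 and 6.35. *Hnf4g*, the intestinal relative of *Hnf4a*, ran from 6.09 to 6.20. Between 0.5 and 1 were *Rarg*, *Ppard*, *Rorb*, *Rxrb*, *Rxrg*, *Nr2c2*, *Nr2f1*, *Esrrb*, *Nr3c1*, *Nr5a1* and *Nr6a1*. *Rxrb* stood at 9.08, 8.42 and 8.91 and *Nr2c2*, the testicular receptor TR4, at 8.79, 9.34 and 9.09. *Nr2f1*, the factor COUP-TFI, stood at 6.21, 7.16 and 6.84. Some probe sets not used here differed more. A dimmer probe set of *Nr3c1* stood at 7.43, 8.92 and 7.91, and a dimmer probe set of *Nr2c2* at 6.58, 7.77 and 6.76. By another probe set *Vdr* stood at 6.20, 6.91 and 6.53, and *Pgr* at 6.88, 6.21 and 6.10. In the VAAM mice 13 genes were at least 1 log2 unit apart between liver and WAT, 14 between liver and BAT and 5 between BAT and WAT, the counts of the water mice.

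Whether VAAM moved any of these genes was asked next, in each tissue alone. limma with Benjamini-Hochberg adjustment over all probe sets called 0 of 39 genes in liver, WAT or BAT, and 0% of all 45037 probe sets. The smallest adjusted p over all probe sets was 0.148 in liver, 0.9998 in WAT and 0.469 in BAT. At an unadjusted limma p under 0.05, 3 genes were higher and 0 lower in liver, against 3.96% of all genes higher and 4.84% lower. In WAT 0 were higher and 1 lower, where 1.6% and 1.86% of all genes were, and in BAT 2 were higher and 1 lower, where 2.12% and 2.24% were. The median effect over the 39 genes was 0.02 SD in liver, -0.10 in WAT and -0.21 in BAT, beside -0.05, 0.0047 and 0.02 over all genes, and 20, 18 and 16 of the 39 were higher. The effects ran from -1.12 to 2.27 SD in liver, from -1.49 to 1.03 in WAT and from -1.25 to 1.40 in BAT.

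**Figure D2:**
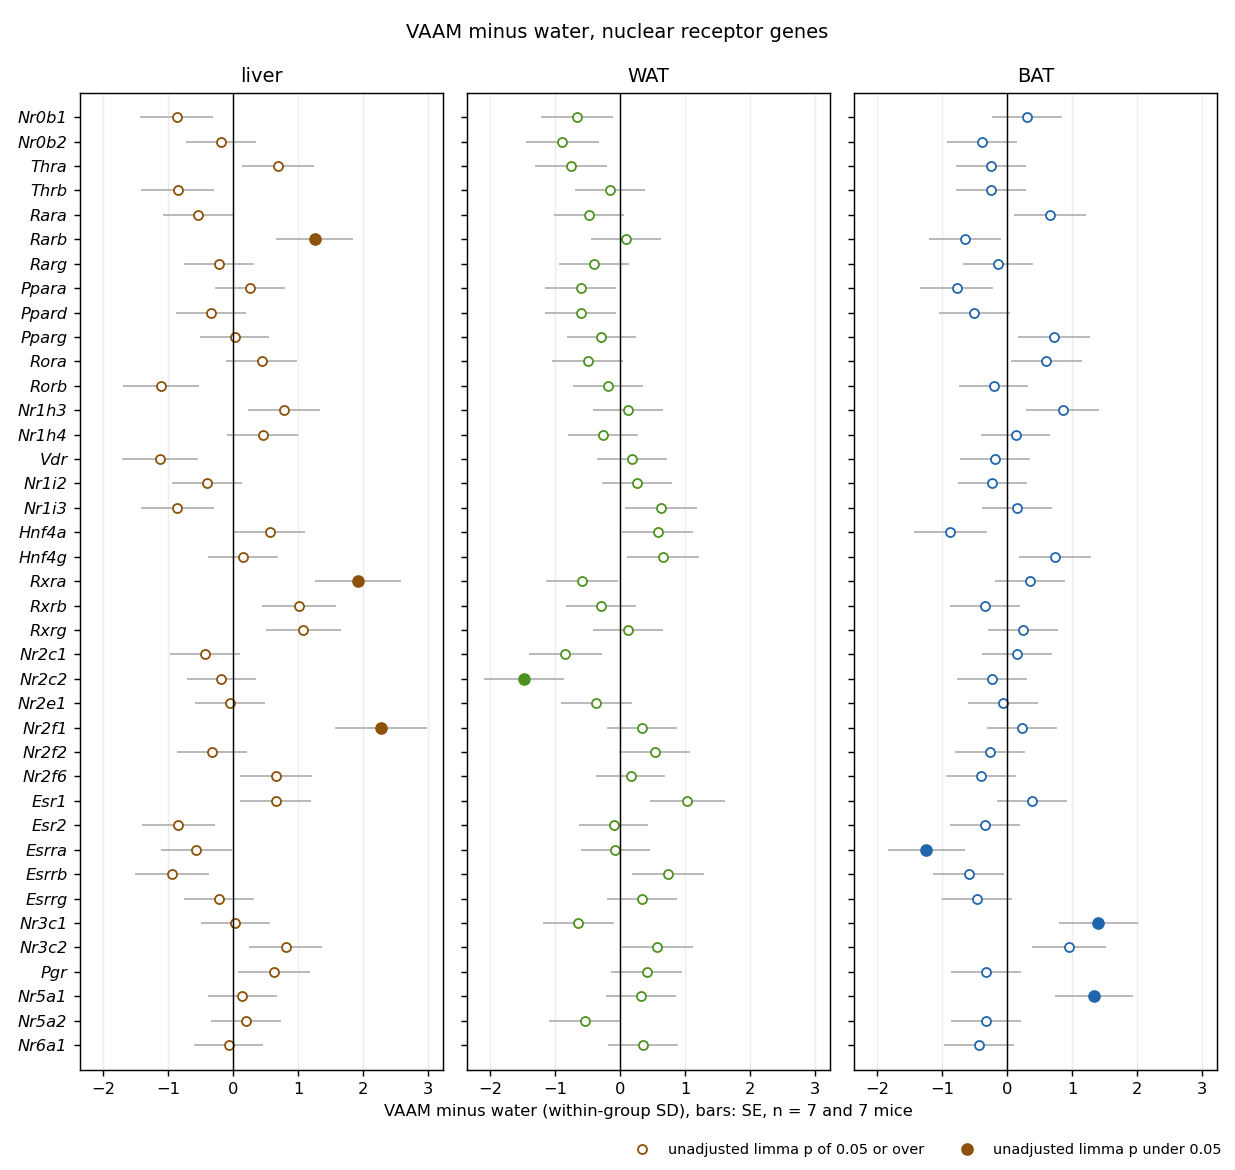
VAAM minus water of the 39 nuclear receptor genes in liver, WAT and BAT, in units of the within-group SD of the probe set, with bars for the SE over 7 and 7 mice and filled symbols for an unadjusted limma p under 0.05. *Nr2f1* at 2.27 in liver and *Nr2c2* at -1.49 in WAT are the extremes, and 3, 1 and 3 symbols are filled.

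In liver the genes of the smallest p were *Nr2f1*, *Rxra* and *Rarb*. *Nr2f1*, the COUP-TFI gene, ran from -1.56 to 1.48 SD around the water mean in the water mice, with a median of 0.17, and from 1.12 to 3.69 in the VAAM mice, with a median of 2.14. Of the 7 VAAM mice 6 lay above every water mouse, and the groups overlapped in 1 mouse. Its effect was 2.27 ± 0.708 SD (exact two-sided permutation p 0.00175, limma adjusted p 0.330). The gene had 1 probe set, whose liver level of 6.21 was under the median of 6.73 over all probe sets. All 14 arrays lay within 2.69e-05 log2 units.

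*Rxra*, the partner of the bile acid, drug and PPAR receptors, ran from -1.76 to 0.63 SD in water, with a median of 0.19, and from 0.54 to 3.44 in VAAM, with a median of 1.67. In the VAAM group 5 of 7 mice were above every water mouse. The effect was 1.92 ± 0.662 SD (exact permutation p 0.0035, limma adjusted p 0.364). The other 2 probe sets of *Rxra*, at lower levels of 8.85 and 6.50, had the opposite sign, -0.97 ± 0.570 and -1.17 ± 0.586 SD (exact permutation p 0.0997 and 0.0501). Its relatives *Rxrg* and *Rxrb* had effects of 1.08 ± 0.578 and 1.01 ± 0.573 SD, with exact permutation p 0.0682 and 0.0792.

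*Rarb*, whose promoter with the direct repeat is given above, ran from -1.004 to 1.88 SD in water, with a median of -0.39, and from -0.17 to 2.27 in VAAM, with a median of 1.41. All 7 VAAM mice were above the water median, but the ranges overlapped broadly. The effect was 1.26 ± 0.593 SD (exact permutation p 0.0402, limma adjusted p 0.509). The next genes by p were *Vdr* at -1.12 ± 0.581, *Rxrg*, and the orphan receptor gene *Rorb* at -1.11 ± 0.581 SD, with exact permutation p between 0.0548 and 0.0682.

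Probe sets of 1 gene were of little help in liver: in 5 of the 25 genes with several, all had the same direction, and in 10 and 12 in WAT and BAT. Another probe set of *Vdr* was at 1.14 SD, against -1.12, and another of *Rorb* at 1.31, against -1.11. *Nr2f2* was at -0.33 by its brightest probe set and at 2.24 ± 0.704 SD by a dim one (exact permutation p 0.00291). After the arrays were quantile normalised again, *Nr2f1* turned to -0.74 SD and *Rxrg* to -0.76. That normalisation left 11, 1 and 0 of the 39 genes higher in liver, WAT and BAT, and 4861, 823 and 2195 of all 18193.

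In WAT *Nr2c2*, the orphan receptor TR4, was the gene of the smallest p. It ran from -1.18 to 1.63 SD in water, with a median of -0.07, and from -2.82 to 0.49 in VAAM, with a median of -1.39. Of the 7 VAAM mice 6 were below every water mouse, and 1 was above the water median. The effect was -1.49 ± 0.614 SD (exact permutation p 0.0146, limma adjusted p 0.9998). Of its other 5 probe sets 3 were also below 0 and 2 were at 0.05 SD.

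*Esr1* came next in WAT. It ran from -1.81 to 2.07 SD in water, with a median of -0.26, and from 0.38 to 2.11 in VAAM, with a median of 0.73. All 7 VAAM mice were above the water median, and only 1 was above every water mouse. The effect was 1.03 ± 0.575 SD (exact permutation p 0.0822), and it was -0.03 after quantile normalisation. The mean of the epididymis markers, in SD of each marker, ran from -0.59 to 1.70 in water and from -0.34 to 2.42 in VAAM, highest in VAAM mouse 1, and its part in these values was not tested.

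*Nr2c1*, the TR2 gene, the relative of *Nr2c2*, ran from -0.89 to 0.75 SD in water, with a median of 0.19, and from -2.50 to 0.83 in VAAM, with a median of -1.21. In VAAM 4 mice were below every water mouse and 1 was above. The effect was -0.85 ± 0.562 SD (exact permutation p 0.136), and 1 of its 5 probe sets had the opposite sign, at 0.42. In BAT the same probe set, at a level of 7.58, was at -2.06 ± 0.680 SD (exact permutation p 0.00291), with 0 VAAM mice above the median of the water group, whereas the probe set that was brightest there, at 7.59, was at 0.15 ± 0.535. *Nr0b2* at -0.89, *Thra* at -0.76 and *Esrrb* at 0.74 SD followed, with exact permutation p from 0.124 to 0.193.

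In BAT *Nr3c1*, the glucocorticoid receptor gene, had the smallest p. It ran from -1.45 to 1.41 SD in water, with a median of -0.03, and from -0.41 to 2.56 in VAAM, with a median of 1.45. Of the 7 VAAM mice 5 were above every water mouse, by little for some. The effect was 1.40 ± 0.606 SD (exact permutation p 0.0268, limma adjusted p 0.933). Its other probe sets were at 1.01, 0.97, 0.64, 0.03 and -0.95 SD. The mean of its 6 probe sets was at -0.27 SD, but it was taken in deposited units, where a probe set of wider spread weighs more. Quantile normalisation, after which 0 of the 39 genes were higher in BAT, gave -0.15.

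*Nr5a1*, the steroidogenic factor 1 of adrenal and gonad, ran from -1.21 to 1.85 SD in water, with a median of -0.08, and from 0.05 to 3.16 in VAAM, with a median of 0.96. All 7 VAAM mice were above the water median and 2 were above every water mouse. The effect was 1.33 ± 0.600 SD (exact permutation p 0.0303), for a gene whose level was 6.68 in liver, 7.16 in WAT and 6.63 in BAT. Its second probe set, also at 6.63 in BAT, had the opposite sign, -1.03 ± 0.575 SD (exact permutation p 0.0804), and quantile normalisation turned the first to -0.03.

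*Esrra* was higher in BAT than in WAT by the brighter of its 2 probe sets, the one used here. It ran from -1.76 to 1.08 SD in water, with a median of 0.43, and from -2.86 to 0.06 in VAAM, with a median of -1.41. None of the 7 VAAM mice was above the water median, and 2 were below every water mouse. The effect was -1.25 ± 0.592 SD (exact permutation p 0.0385). *Nr3c2* at 0.95, *Hnf4a* at -0.88 and *Nr1h3* at 0.85 SD followed, with exact permutation p from 0.105 to 0.138.

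**Figure D3:**
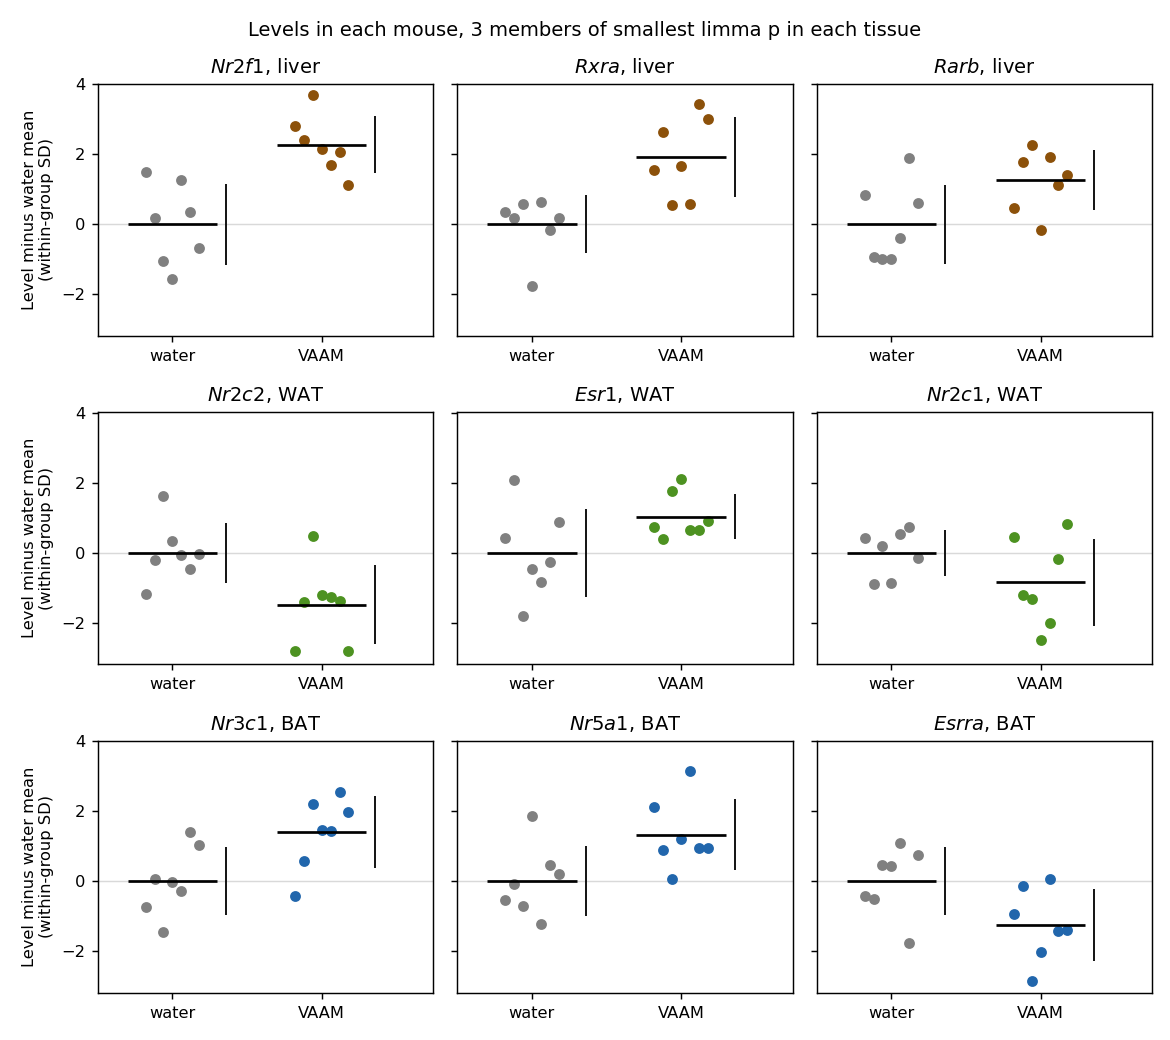
Level in each of 7 water (grey) and 7 VAAM (coloured) mice of the 3 nuclear receptor genes of smallest limma p in liver, WAT and BAT, as the difference from the water mean in within-group SD, with a horizontal line for the mean and a vertical line for 1 SD to each side. *Nr2f1* in liver, at a low level of 6.21, shows the clearest separation, with 6 of 7 VAAM mice above every water mouse. All 9 genes overlap in at least 1 mouse.

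The receptors of oestrogen and progesterone, signals the study discusses, were followed in every tissue, as was the glucocorticoid receptor, added here. *Esr1* was at 0.65 ± 0.551 SD in liver, 1.03 in WAT and 0.38 ± 0.540 in BAT. *Esr2* was at -0.85 ± 0.562, -0.10 ± 0.535 and -0.34 ± 0.539 SD, and *Pgr* at 0.63 ± 0.550, 0.41 ± 0.541 and -0.33 ± 0.539. *Nr3c1* was at 0.04 ± 0.535 SD in liver, -0.64 ± 0.550 in WAT and 1.40 in BAT. Apart from *Nr3c1* in BAT, none had an exact permutation p under 0.05 in any tissue.

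Whether the VAAM effect differed between tissues was tested on values in SD, with the arrays of 1 mouse taken as independent. The SD came from the same arrays and was treated as known, so these p-values are too small. limma called 0 of the 39 genes between any 2 tissues, where it called 0.249% of all probe sets between liver and WAT, 0.153% between liver and BAT and 0.02% between BAT and WAT. At an unadjusted p under 0.05 there were 6, 4 and 1 of the 39, against 10.1%, 8.37% and 5.18% of all probe sets. The genes of the smallest p were *Rxra* between liver and WAT, at 1.92 and -0.59 SD (adjusted p 0.124), *Nr2f1* between liver and BAT, at 2.27 and 0.22 (adjusted p 0.310), and *Nr3c1* between BAT and WAT, at 1.40 and -0.64 (adjusted p 0.693).

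Rank products, the method the study used, rank the differences between every VAAM array and every water array, so a probe set of wide spread can lead whatever its spread within groups. On the deposited values they called *Esr1* higher and *Nr0b2* and *Nr1i3* lower in liver, where 4.94% of all genes were called. They called *Hnf4a* and *Esr1* higher in WAT, where 4.79% were, and *Ppara* lower in BAT, where 4.34% were. In liver the 3 genes were those of the widest range between mice, 0.00996 log2 units for *Nr0b2*, 0.00466 for *Esr1* and 0.00328 for *Nr1i3*. *Hnf4a* was the widest in WAT, at 0.0319, and *Ppara* the widest in BAT, at 0.0142. The order of ranges did not give every call: in WAT *Esr1*, at 0.00295, was called, and *Pparg*, at 0.0048, was not. With every probe set scaled to unit SD first, rank products called *Rxra* and *Nr2f1* higher in liver, where 0.791% of all genes were called. They called 0 of the 39 in WAT and 0 in BAT, where 0.154% and 0.247% of all genes were called.

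Genes around the receptors were counted next, in 12 lists of partners, ligand handling and target genes with 140 of 158 genes measured. With each tissue fitted alone, no gene of any list passed the adjusted threshold. One fit over all 42 arrays, in which the tissues share 1 spread, called 1.53% of all probe sets in liver, 0.286% in WAT and 0.699% in BAT. It called 6 of the 140 genes in liver (*Ces2a*, *Dusp1*, *G6pc*, *Tat*, *Tff1* and *Rarb*, the receptor gene that is also a retinoid target), 1 in WAT (*Mttp*) and 1 in BAT (*Errfi1*). In each tissue fitted alone, 3.96% of all genes were higher and 4.84% lower in liver at an unadjusted p under 0.05. There the target genes of the glucocorticoid receptor had 6 of 16 higher and 2 lower, and no other list had over 2 in all. Of the other lists, the 16 coactivators and corepressors had 1 higher and 0 lower, the 21 genes of ligand supply, breakdown and carriers 0 and 2, and the 10 retinoic acid and vitamin D receptor targets 1 and 0. The 20 PPAR, 11 CAR and PXR, 9 thyroid hormone receptor and 11 oestrogen and progesterone receptor targets had 0 higher and 1 lower each. For PPAR and thyroid hormone receptor targets this was the same gene, *Ucp1*. Its liver level was 6.39, under the median of 6.73 over all probe sets. The 12 LXR, 10 FXR, 11 HNF4A and 11 oestrogen-related receptor targets had 0 in either direction.

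The glucocorticoid list had a median of 0.78 SD in liver, beside -0.05 over all genes, while *Nr3c1* itself was at 0.04. *Sgk1*, a kinase of salt and nutrient handling, ran from -1.24 to 2.11 SD in water, with a median of 0.07, and from 1.67 to 3.46 in VAAM, with a median of 2.19. All 7 VAAM mice were above the water median, and the highest water mouse overlapped the VAAM range. Its effect was 2.46 ± 0.734 SD (exact permutation p 0.00233, limma adjusted p 0.330). The other 5 higher genes, named after their values were seen, were the phosphatase gene *Dusp1* (1.63 ± 0.630), the EGF receptor inhibitor gene *Errfi1* (1.60 ± 0.627), the tyrosine aminotransferase gene *Tat* (1.41 ± 0.607), the glucose-6-phosphatase gene *G6pc* (1.40 ± 0.606) and *Tsc22d3*, which encodes GILZ (1.32 ± 0.599). In each of these 5 the 7 VAAM mice were all above the water median, with exact permutation p from 0.00932 to 0.0315.

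The 2 lower genes of that list were the cell cycle inhibitor gene *Cdkn1a* (-1.19 ± 0.587) and the zinc finger gene *Zbtb16* (-1.14 ± 0.583), and in both all VAAM mice lay at or under the median of the water mice. *Pck1*, of gluconeogenesis, and the clock gene *Per1* had 7 of 7 VAAM mice above it at 1.08 ± 0.579 and 1.07 ± 0.577 SD (exact permutation p 0.0676 and 0.0694). *Fkbp5*, a direct target used as a marker of receptor activity, was at -0.01 ± 0.535 SD, and the metallothionein genes *Mt1* and *Mt2* at 0.32 and 0.43. *Angptl4*, *Klf9*, *Pck1* and *Fkbp5* also stand in other lists. Leaving out each array in turn gave 5 to 8 higher genes and 0 to 2 lower ones, while 2.78% to 4.52% of all genes were higher and 3.62% to 6.18% lower. Quantile normalisation gave 5 and 1, where 0.88% of all genes were then higher and 6.65% lower, and the fit over all 42 arrays gave 5 and 0. The mean of the hepatocyte markers, which share *Tat* with this list, ran from -0.48 to 0.38 SD in water and from -0.0025 to 0.74 in VAAM, and that of the macrophage markers from -0.96 to 0.80 and from -0.31 to 2.51 (exact permutation p 0.104 and 0.129). Of the 12 marker lists 3 had an exact permutation p under 0.05 in liver. The skeletal muscle mean ran from -0.19 to 0.35 SD in water and from -0.86 to -0.12 in VAAM, the brown adipocyte mean from -0.32 to 0.44 and from -0.91 to -0.05, and the T and B cell mean from -0.43 to 0.21 and from -1.04 to 0.35 (exact permutation p 0.00233, 0.0169 and 0.0478). In liver the muscle markers had a median level of 6.66 and the T and B cell markers of 6.605, under the 6.73 of all probe sets. Their summed levels were 64.684 and 40.672 log2 units in the lowest and the highest mouse of both groups. These 2 shifts therefore lie among dim probe sets, and no cell content is read from them. The brown adipocyte list holds *Elovl3* and *Slc27a2*, at 9.53 and 13.77 in liver and lower in both fats. No brown adipocyte content is therefore read from its mean in liver. The part of any of these cell types in the values was not tested.

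**Figure D4:**
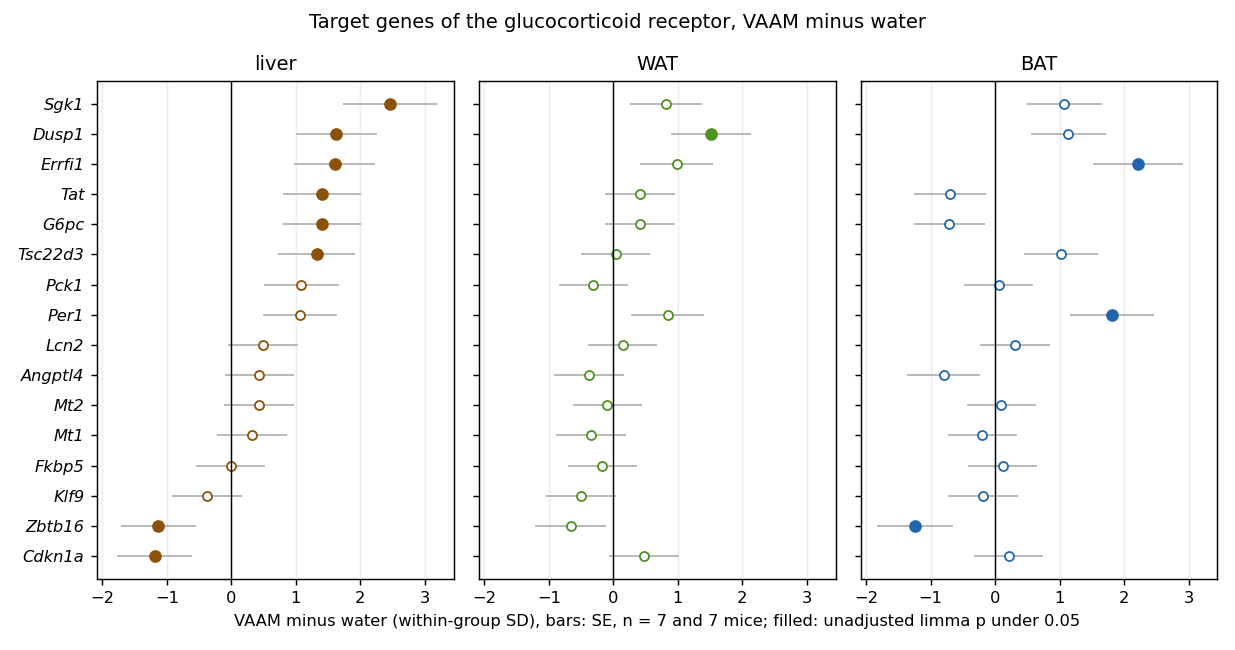
VAAM minus water of 16 target genes of the glucocorticoid receptor in liver, WAT and BAT, in within-group SD with bars for the SE over 7 and 7 mice, ordered by the liver value, with filled symbols for an unadjusted limma p under 0.05. In liver 6 filled symbols lie to the right, led by *Sgk1* at 2.46, and 2 to the left, while WAT has 1 and BAT 3 filled symbols.

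The other list genes of the smallest p in liver were *Ces2a*, a CAR and PXR target that encodes a carboxylesterase, at -2.45 ± 0.732 SD, *Cyp27a1*, which makes oxysterol and bile acid ligands, at -1.63 ± 0.630, and *Ncoa3*, a coactivator, at 1.54 ± 0.621. The VAAM mice above the water median numbered 0 for *Ces2a*, 0 for *Cyp27a1* and 7 for *Ncoa3*, and the exact permutation p were 0.00175, 0.00233 and 0.00932.

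In WAT the 12 lists held 2 higher and 2 lower of the 140 genes, beside shares over all genes of 1.6% and 1.86%. They were the lipoprotein assembly gene *Mttp* of the HNF4A list (2.10 ± 0.686 SD, exact permutation p 0.0035), *Dusp1* (1.51 ± 0.617, p 0.0186 by the exact test), the corepressor gene *Tbl1x* (-1.54 ± 0.620, exact p 0.0117) and the cytochrome c gene *Cycs* of the oestrogen-related receptor list (-1.22 ± 0.590, exact p 0.0425).

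In BAT the counts were 2 higher and 1 lower among coactivators and corepressors, 2 and 0 among PPAR targets, 1 and 0 among HNF4A targets, 2 and 1 among glucocorticoid receptor targets, and 0 and 1 among oestrogen-related receptor targets, with 0 in the other 7 lists. The shares over all genes were 2.12% and 2.24%. *Errfi1* was at 2.21 ± 0.699 SD (exact permutation p 0.0035), *Adipoq*, a PPAR gamma target, at 1.96 ± 0.667 (exact permutation p 0.00466), the acetyltransferase gene *Crebbp* at 1.43 ± 0.610 (exact permutation p 0.0239) and *Apoc3* at 1.24 ± 0.591 (exact permutation p 0.0355). The mean of the adipocyte markers, of which *Adipoq* is 1, ran in BAT from -0.54 to 0.63 SD in water and from -0.09 to 1.29 in VAAM (exact permutation p 0.028), and its part in these values was not tested. Over liver, WAT and BAT, which came from the same mice, some genes of the glucocorticoid list were higher in every tissue. *Errfi1* was at 1.60, 0.98 and 2.21 SD, *Dusp1* at 1.63, 1.51 and 1.13. *Sgk1* was at 2.46, 0.82 and 1.07, and *Per1* at 1.07, 0.84 and 1.81. *Zbtb16* went the other way, with VAAM medians of -0.99, -0.41 and -1.01 SD from the water mean. Of the whole list of 16, 12 were higher and 4 lower in liver, 9 and 7 in WAT, and 10 and 6 in BAT. The list medians were 0.78, 0.09 and 0.11 SD.

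Apart from VAAM, *Nr0b2* had the widest range of the receptor genes in liver, though only 0.00996 log2 units on the compressed scale. The targets of FXR were set against *Nr0b2* in liver over the 14 mice, each group centred on its own mean. Of 9 relations computed, chosen after the values were seen, that with *Cyp7a1*, whose enzyme limits the rate at which bile acids are made, had the smallest p. Pearson's r was -0.62 (permutation p 0.0188, adjusted over the 9 relations 0.169) and Spearman's rho was -0.44 (permutation p 0.119, adjusted 0.321). It was -0.66 in the water mice and -0.60 in the VAAM mice. Without the 2 mice farthest from the median of *Nr0b2*, r was -0.17, so the relation rested on those mice.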

How the data were processed

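Liver, WAT and BAT of 7 water and 7 VAAM mice were measured on 42 arrays. Per the labels and methods, the authors deposited log2 DFW values made in R 2.7.2 (submitters' processing notes) with Bioconductor; the base of the logarithm was taken from their range. Probe sets that name 1 gene (34945 of 45101) were assigned by the platform annotation, and 64 control probe sets were left out. limma 3.58.1 (lmFit and eBayes, R 4.3.3) was fitted over 45037 probe sets, each tissue alone for VAAM, 21 water arrays for tissues, and 42 arrays scaled to unit SD for the difference of effects. Benjamini-Hochberg adjustment covered all probe sets, at 0.05. Exact tests were two-sided over all 3432 splits of 14 arrays, with 0.000583 the smallest p; correlations used 100000 permutations. Rank products used all 49 pairs and 50 permutations. The scripts were tested on simulated data. The number of arrays limits the precision, and p-values measure the spread between these mice. Named genes were those passing the threshold or else the 6 of smallest limma p per tissue, the receptors of oestrogen, progesterone and glucocorticoid, and 1 gene each of at most 4 lists per tissue. The members and lists were chosen with earlier results of these data known. Samples that received another amino acid mixture were not analysed here. The 1 log2 level rule was chosen after limma was seen to call nearly all probe sets. The same replicate numbers across groups did not pair the mice of a tissue: correlations of same-numbered arrays ran from -0.191 to 0.478. Between tissues of 1 treatment they ran from -0.0363 to 0.297, and the same-numbered array was mostly the closest match. The fits of tissues and of differences of effects took arrays as independent, so their p-values leave this pairing out. With treatment and number as a block, 0 receptor genes were called for a difference of effects.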

Additional observations from a re-analysis of the deposited data

Results flagged for a closer look

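Among 66 groups of 7 mice, each for a named receptor gene, a tissue and a treatment, 5 had a single mouse whose gap to the nearest other mouse, as a share of the whole range of the group, was above the limit of Dixon's test, 0.568 for 7 values. Chance gives about 1 in 20 groups. In WAT, VAAM mouse 1, whose array stood apart from the rest of its tissue and had the highest mean of the epididymis markers, was lowest for *Thra* (share 0.779, at -3.29 SD from the water mean) and for *Pparg* (share 0.619, at -2.87 SD). In WAT, water mouse 2 was lowest for *Esr2* (share 0.61, at -0.89 SD). In liver, water mouse 4 was lowest for *Rxra* (share 0.666, at -1.76 SD). In BAT, VAAM mouse 5, an array that also stood apart, was highest for *Nr1h3* (share 0.6, at 3.12 SD). No receptor gene had a VAAM effect that passed the test of a difference between tissues.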

How the results depend on the processing

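limma gave 0 called receptor genes in each tissue when each array was left out in turn (0 to 0), with the replicate number as a block (the replicate block gave 0 in liver, WAT and BAT), with a filter above the median, with quantile normalisation, with a trend and robust prior, with array weights and with gene means. One fit over all 42 arrays called 1 gene in liver, *Rarb*, where it called 1.53% of all probe sets. Rank products called 3 genes in liver, 2 in WAT and 1 in BAT on deposited values, and 2 in liver on values scaled to unit SD. Among the named effects of smallest limma p in each tissue, quantile normalisation turned the sign of 8. In liver *Nr2f1* turned to -0.74 and *Rxrg* to -0.76 SD, and in WAT *Esr1* to -0.0265 and *Esrrb* to -0.56. In BAT *Nr3c1* turned to -0.15, *Nr5a1* to -0.0268, *Nr3c2* to -0.21 and *Nr1h3* to -0.27. Of the 39 receptor genes 20, 18 and 16 were higher in liver, WAT and BAT before it, and 11, 1 and 0 after it. Of all 18193 genes, 4861, 823 and 2195 were higher after it. Most genes were thus lower after it in every tissue, and these turns are not read as specific to the gene. The mean of all probe sets turned *Rorb* in liver to 1.18 and *Nr3c1* in BAT to -0.27. The cause was not tested. Without the arrays that stood apart, chosen after seeing the data, the effects kept their sign, with *Nr2f1* at 2.21, *Rxra* at 1.81, *Nr2c2* at -1.33 and *Nr3c1* at 1.16. Between tissues, 39 genes were called with every replicate number left out (39 to 39) and with the replicate block. The counts of genes at least 1 log2 unit apart were 13 to 13, 14 to 14 and 5 to 5 when replicate numbers were left out, and the gene means gave 3 in place of 5 between BAT and WAT. Arrays give no count depth, and a dim probe set has no stated background, which limits the low levels.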
